A study of Homo sapiens with 35 samples.

Results

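The cells described here are 302 single cells of 1 library, taken 36 h into the conversion of H1 human embryonic stem cells towards definitive endoderm, and given the working name advanced mesendoderm. A barcode of that library was a member if it held at least 10000 unique molecular identifiers (UMIs, each standing for 1 captured RNA molecule) with at most 10% of them from genes with the MT- prefix, and if at least 3 of the 6 genes LHX1, DKK4, APLNR, DKK1, GATA6 and FGF17 had 1 UMI or more. The 302 cells were 11.2% of the 2693 cells past the depth filter (exact binomial 95% interval 10.0% to 12.5%), of 6244 barcodes in the library and 18831 in the 3 single-cell libraries of the study. The other 2391 cells past the same filter are the comparison. Members were selected on measured UMIs of these 6 genes, so the gate genes are given as a description and enter no finding.

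The study followed H1, an established human embryonic stem cell line, through endoderm induction by bulk and single-cell RNA sequencing. For the 36 h library the labels name Activin A with CHIR99021 (CHIR) followed by Activin A alone, at 100 ng/ml Activin A on each day and 3 µM CHIR on day 1. Activin A signals through the Nodal receptors, and CHIR inhibits GSK3 and so turns on Wnt signalling. The single-cell libraries compared at 72 h are endoderm of the same induction and cells from a commercial mesoderm induction medium (STEMdiff Mesoderm Induction). The bulk libraries compared are unsorted cells given Activin A with CHIR or CHIR alone for 24 h, 2 of each. Bulk libraries of BRD with CHIR, JNJ with CHIR and BRD alone at 24 h entered the same fit. BRD and JNJ are treatment names from the labels, and these groups had no Activin A on day 1. Bulk libraries of Activin A with CHIR at 6 h and of sorted Activin A cells at 72 h serve only to show levels. All come from H1, and every single-cell sample is 1 library. Cells were sorted by FACS before loading, and the gate of that sort is not given in the sources used here, so it may have set the share of members.

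In the embryo, Nodal and Wnt signals draw pluripotent epiblast cells into the primitive streak, where they switch on the T-box factors TBXT (brachyury) and EOMES. Cells of the anterior streak, which see the most Nodal signal, go on to definitive endoderm and to axial and cardiac mesoderm, and mesendoderm is the name for cells still shared between these fates. SOX17 marks the step into definitive endoderm, and SOX2 and NANOG mark the pluripotent state that is left behind.

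Most cells held few of the gate genes. Of the 2693 cells, 1455 held none of the 6 genes, 736 held 1 and 200 held 2, while 77 held 3, 50 held 4, 80 held 5 and 95 held all 6. With all UMIs the number of cells was thus lowest at 4 genes. DKK1, a secreted Wnt antagonist, had a UMI in 95.4% of gated and 20.4% of other cells, and its relative DKK4 in 72.5% and 9.70%. The growth factor FGF17 had one in 90.1% and 7.78%, the endoderm factor GATA6 in 78.8% and 3.93%, the organizer factor LHX1 in 73.2% and 3.09%, and the apelin receptor APLNR in 54.0% and 2.63%. After every cell was thinned to 10000 UMIs, 205 cells (7.61%) passed the gate, with 50, 51, 66 and 38 cells at 3, 4, 5 and 6 genes, so the lowest count was then at 6.

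**Figure D1:**
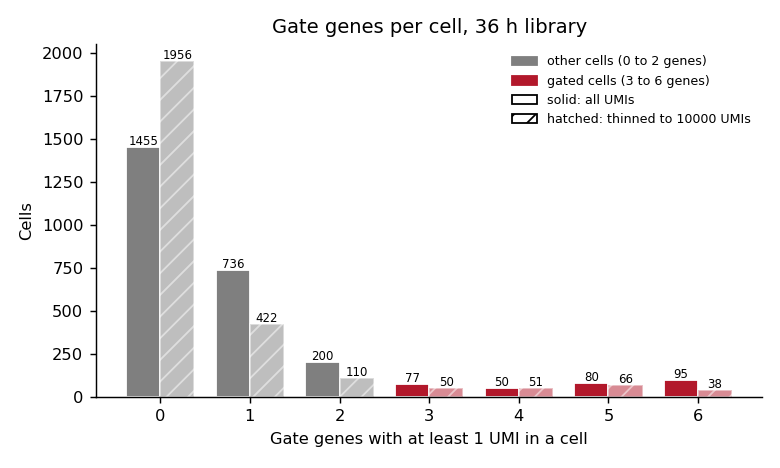
Number of cells of the 36 h library (y axis) by how many of the 6 gate genes had a UMI (x axis), with all UMIs (solid) and after thinning to 10000 UMIs per cell (hatched); red bars are gated cells. Counts fall to 50 cells at 4 genes and rise again to 95 at 6 genes with all UMIs, while after thinning the highest count among gated cells is 66 at 5 genes.

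Depth and RNA quality differed little between the sets. Gated cells had a median of 26825 UMIs and other cells 26219, with medians of 4398.5 and 4330 detected genes and of 2.83% and 2.96% MT- UMIs. At the edge of the rule, the gated cell with the fewest UMIs had 10452, and the deepest barcode left out for depth that carried at least 3 gate genes had 9304. Between 50 and 56 barcodes were shared by each pair of single-cell libraries, 2 of them gated cells. No doublet caller was run. Without barcodes of over 2 times the median UMIs, 293 gated cells were left.

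All 5 genes proposed as markers of these cells are gate genes, so they check nothing, and the name was read against other markers. Genes of the primitive streak were high in gated cells, SOX17 had 0 UMIs in both sets, and the pluripotency factor POU5F1 was still present at 802 CPM (UMIs per mega-UMI of the summed cells). For SOX17, 0 of 302 gated cells allows a share of cells with a UMI of up to 0.993%, and 0 of 2391 other cells up to 0.125%, for counting error only. These limits are on cells with a UMI, and cells that express SOX17 below detection are not limited by them. No SOX17 level of the 72 h endoderm library is given here, so how well these libraries detect SOX17 is not shown. The streak values do not go against the name mesendoderm.

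With 1 library there is no replicate, and no test was made between cells. Levels are sums over each set, 8.35 M (mega) UMIs in gated and 64.6 M in other cells, and intervals are exact 95% intervals that cover counting error only. A gene was called higher or lower at 1.5-fold, with at least 20 CPM in the higher set. Some genes passed that line only through the set where they are high. Examples are MSX1, TBX6, BMP2, NKD1, FLRT3 and ROR2 through gated cells, and NKX1-2 and APELA through other cells. Counts of called genes in the lists below are therefore descriptions only. Of 4379 genes at that level, 121 were higher in gated cells (2.76%) and 103 lower (2.35%), and the median log2 ratio of all 4379 was 0.00.

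Among genes of at least 50 CPM in the higher set, those with the largest ratios included secreted regulators, a retinoic acid enzyme and matrix and streak genes. CER1, a secreted inhibitor of Nodal, BMP and Wnt made by anterior endoderm (chromosome 9, 14719724 to 14722717, minus strand, GRCh38), had 934 CPM in gated and 38.8 CPM in other cells, a ratio of 24.1 (23.0 to 25.2). After thinning, a UMI of CER1 was found in 87.8% of gated cells (83.5% to 91.2%) and 24.3% of other cells (22.6% to 26.1%), and in 95.7% and 42.5% without thinning. A gated cell held a median of 7 CER1 UMIs and at most 67 after thinning, and an other cell a median of 0 and at most 27, so the sets overlap cell by cell. No cell type known to lack CER1 is in this library, so the share that free RNA gives was not measured, and barcodes under 10000 UMIs summed to 106 CPM of CER1.

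CYP26A1, which breaks down retinoic acid (chromosome 10, 93073475 to 93077890, plus strand), had 371 CPM against 18.2 CPM, a ratio of 20.4 (19.1 to 21.9). Its UMIs were found in 68.5% of gated and 12.3% of other cells after thinning. HAS2, the enzyme that makes the matrix sugar hyaluronan, had 160 against 8.97 CPM, a ratio of 17.8 (16.2 to 19.7), and was found in 60.3% and 8.28% of cells after thinning. CER1, CYP26A1 and HAS2 were thus found in most gated cells and in a minority of other cells after thinning, and none of them in every gated cell.

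Further down came CA2, carbonic anhydrase, with 141 against 30.8 CPM, the Wnt receptor FZD7 with 57.4 against 19.7 CPM, and the early response gene IER3 with 186 against 65.9 CPM. The growth arrest gene GADD45A had 68.5 against 24.7 CPM and the mesenchymal cadherin CDH2 74.7 against 27.5 CPM. Lower in the set of 15 were QPCT, MFAP4 and SHISAL2B, with ratios of 2.79, 2.71 and 2.31. Genes under 50 CPM could reach larger ratios, such as LIX1 at 32.6 against 0.310 CPM and RFPL2 at 31.6 against 0.434 CPM, which were picked out after their values were seen. GATA6-AS1 and LHX1-DT, named for the gate genes GATA6 and LHX1, were also among the 121.

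**Figure D2:**
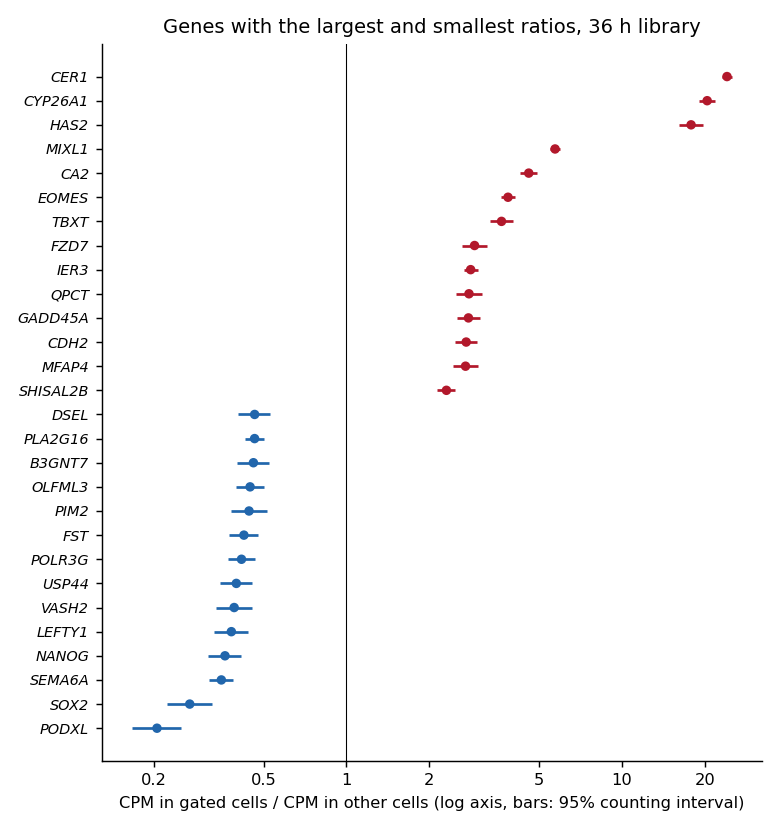
Ratio of CPM in gated cells to CPM in other cells (x axis, log scale) for 14 of the 15 genes with the largest and 14 of the 15 with the smallest ratio among genes of at least 50 CPM; points are ratios of summed UMIs and bars their 95% counting intervals. The ratios run from 0.205 for PODXL to 24.1 for CER1. The genes were picked by these same ratios, so intervals away from 1 follow from the choice.

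Most measured genes of the primitive streak, transcription factors and ligands, were higher. Of 14 listed streak genes 9 were measured at 20 CPM or more, 8 of them were higher and none lower, with a median log2 ratio of 1.95 against 0.00 for all genes. GSC, SNAI1, FGF4 and WNT3 reached 20 CPM in gated cells only, so they entered this count through the set where they are high. MIXL1, the homeobox factor of the early streak, had 503 CPM in gated and 88.0 CPM in other cells, a ratio of 5.72 (5.50 to 5.96). EOMES had 212 against 55.0 CPM, a ratio of 3.86 (3.64 to 4.09). TBXT had 81.2 against 22.2 CPM, a ratio of 3.66 (3.33 to 4.01). These 3 factors were not limited to gated cells: after thinning, other cells showed MIXL1 in 48.4%, EOMES in 37.1% and TBXT in 18.4%, against 93.7%, 82.8% and 56.3% of gated cells. NODAL, the ligand whose receptors Activin A uses, was the streak gene that did not pass 1.5-fold, at 302 against 233 CPM.

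Also higher were GSC, the organizer homeobox factor, at 30.4 against 3.33 CPM, and SNAI1, the repressor of epithelial genes, at 22.6 against 4.52 CPM. FGF4 had 22.6 against 5.81 CPM, the ligand WNT3 26.9 against 16.8 CPM and the Wnt target SP5 53.1 against 29.4 CPM.

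Activin A acts on target genes through SMAD2 and SMAD3 with the partner FOXH1, and CHIR through beta-catenin with TCF/LEF factors, so promoters of the 121 higher genes were searched for a site of each. The letters searched on both strands of the 250 bases before the transcription start were TGTGGATT for FOXH1 and CTTTGAT for TCF/LEF. RefSeq promoters (GRCh38.p14) matched 86 of the 121 genes, and only MIXL1 and SP5 held both motifs. Their first 200 of these bases are shown for that reason, with the matches in capitals, at chr1:226223414-226223613 and chr2:170715087-170715286, both on the plus strand.
MIXL1: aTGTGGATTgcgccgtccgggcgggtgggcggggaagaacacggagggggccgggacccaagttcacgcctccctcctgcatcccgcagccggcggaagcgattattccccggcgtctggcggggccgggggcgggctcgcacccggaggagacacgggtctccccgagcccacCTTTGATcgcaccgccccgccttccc
SP5: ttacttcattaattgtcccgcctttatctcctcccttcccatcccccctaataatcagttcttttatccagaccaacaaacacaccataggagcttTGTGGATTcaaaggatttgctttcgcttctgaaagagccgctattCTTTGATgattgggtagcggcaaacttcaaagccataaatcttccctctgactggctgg

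In MIXL1 the FOXH1 letters begin 249 bases before the start and the TCF/LEF letters 76, and in SP5 they begin 154 and 109 bases before it. Over 35116 promoters of the same length, 0.709% held the FOXH1 letters and 2.26% the TCF/LEF letters. Among the 86 matched promoters 2 (2.33%) held the first and 5 (5.81%) the second, the latter in IL17RD, LBR, MIXL1, RAB3B and SP5. The gene sets kept only the first promoter listed for each gene and the 35116 kept every promoter, so the shares differ in unit. The T-box letters TCACACC were in 3 of the 86 (3.49%) and in 2.76% of all promoters. Among the 77 matched promoters of the 103 lower genes, the 3 motifs were in 3, 0 and 2, with T-box first, FOXH1 second and TCF/LEF last. A match is a description of letters and not a site of binding.

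Most measured genes of the anterior streak were higher, and few genes of definitive endoderm reached the level needed to be counted. Of 17 genes of anterior streak and mesendoderm 9 were measured, with 6 higher (MIXL1, EOMES, HAS2, CER1, OTX2 and GSC) and 2 lower, the Nodal inhibitors LEFTY1 and LEFTY2. Of all measured genes 2.76% were higher and 2.35% lower. HAS2, OTX2 and GSC reached 20 CPM in gated cells only, so they entered this count through the set where they are high. OTX2, a factor of anterior tissue, had 46.3 CPM in gated and 11.5 CPM in other cells. HHEX, a homeobox factor of the anterior endoderm, had 19.8 against 0.651 CPM and stayed just under the 20 CPM line. FOXA2, the pioneer factor of endoderm and node, had 11.8 against 3.30 CPM, a ratio of 3.59 (2.80 to 4.58) from 99 and 213 UMIs.

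Of 20 genes of definitive endoderm only 4 reached 20 CPM in either set, and CER1 was the 1 called higher. The other 3, EPCAM, CLDN6 and BST2, were within 1.5-fold (median log2 ratio of the 4 -0.01). Under that line the endoderm markers HHEX, FOXA2 and CXCR4 had more CPM in gated than in other cells, so the count does not speak for the whole list. CXCR4, a surface marker of definitive endoderm, had 10 UMIs in gated and 19 in other cells, or 1.20 and 0.294 CPM. The reporter feature mNeonGreen, present in the deposited matrices, had 10 UMIs in 7 of the 302 gated cells and 0 in 2391 other cells, which allows a share of up to 0.125% there. All 10 of its UMIs lay in cells with 5 or 6 gate genes. At 72 h it stood at 209 CPM in the endoderm library and 0 in the mesoderm library.

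Genes of early mesoderm were at low levels, and the lists did not move as 1 group. Of 17 genes of nascent and cardiac mesoderm 2 were measured at 20 CPM or more, MSX1 being higher and KDR lower, and of 12 of paraxial and presomitic mesoderm 2 were, TBX6 being higher and NKX1-2 lower. Under 20 CPM, MESP1, a factor of the first mesoderm to leave the streak, had 13.3 against 0.449 CPM, and its relative MESP2 had 6.70 against 0.480 CPM. TBX6 had 32.0 against 2.22 CPM and the homeobox factor MSX1 24.2 against 1.502 CPM. The growth factor receptor PDGFRA had 18.8 against 1.02 CPM, while MSGN1 of the presomitic mesoderm had 0 UMIs in both. KDR, a receptor of later vascular mesoderm, was lower in gated cells, at 16.9 against 27.1 CPM.

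Mesoderm and anterior markers were often found in the same gated cell. Marker sets were put together after values had been seen, so these shares describe and support nothing else. After thinning, at least 1 UMI of MESP1, MESP2, TBX6, PDGFRA or MSX1 was found in 44.4% of gated cells (38.7% to 50.2%) and 5.77% of other cells (4.87% to 6.78%). At least 1 UMI of GSC, HHEX, FOXA2, OTX2 or FLRT3 was found in 68.2% (62.6% to 73.4%) and 16.5% (15.1% to 18.1%). Without thinning the shares were 69.5% and 13.3% for the first set, and 89.7% and 36.0% for the second.

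Both sets were seen in 102 gated cells (33.8%), the mesoderm set alone in 32, the anterior set alone in 104 and neither in 64. The anterior set was found in 76.1% of gated cells with a mesoderm marker (68.0% to 83.1%) and in 61.9% of those without (54.1% to 69.3%). So presence of one set did not go with absence of the other at this depth. TBXT and EOMES were found together in 45.4% of gated and 8.66% of other cells.

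Some pluripotency genes were lower. Of 22 listed genes 15 were measured, none was higher, 5 were lower (SOX2, NANOG, USP44, TERF1 and DPPA4) and 10 were within 1.5-fold, with a median log2 ratio of -0.30. SOX2 had 14.4 CPM in gated and 53.3 CPM in other cells, a ratio of 0.270 (0.223 to 0.323), and was found after thinning in 10.9% of gated and 39.1% of other cells. NANOG had 25.7 against 71.1 CPM, a ratio of 0.362 (0.314 to 0.415). DPPA4 had 123 against 226 CPM and TERF1, a telomere-binding protein abundant in stem cells, 161 against 326 CPM. POU5F1 was lower by less than 1.5-fold, at 802 against 1025 CPM, and was found in 99.3% of gated cells after thinning.

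The smallest ratio was that of PODXL, the sialomucin that carries stem cell surface epitopes, at 11.8 against 57.8 CPM, a ratio of 0.205 (0.166 to 0.2504). SEMA6A, a transmembrane semaphorin, had 49.7 against 141 CPM, and POLR3G, the stem cell subunit of RNA polymerase III, 40.9 against 98.5 CPM. Follistatin (FST), which binds Activin, had 34.0 against 80.1 CPM and LEFTY1 26.0 against 68.0 CPM. VASH2, USP44, PIM2, OLFML3, B3GNT7, PLA2G16 and DSEL had ratios between 0.391 and 0.464. NKX1-2 had 6.94 against 26.4 CPM and the apelin receptor ligand APELA 5.74 against 22.1 CPM.

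Nodal and Activin targets did not move as 1 group. Of 20 listed targets 16 were measured, with 6 higher (MIXL1, EOMES, CER1, GSC and TGIF1 among them), 4 lower (LEFTY1, LEFTY2, FST and GDF3) and 6 within 1.5-fold. TGIF1, a repressor of SMAD activity, had 197 against 119 CPM. The 4 lower targets include 3 secreted inhibitors of Nodal or Activin, whereas CER1, also an inhibitor, was higher.

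Of 23 Wnt targets and antagonists 5 were measured, SP5 and NKD1 being higher, with NKD1, an intracellular inhibitor of Wnt signalling, at 22.1 against 4.57 CPM. Of 16 BMP ligands and targets 5 were measured, with BMP2 at 25.5 against 0.991 CPM and MSX1 higher, while the targets ID1 and ID2 had ratios of 0.683 and 0.691, short of the 1.5-fold line. Of 21 FGF and ERK genes 5 were measured, with IER3 and FGF4 higher and the FGF inhibitor SPRY1 lower at 23.5 against 49.9 CPM.

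The cadherins differed in opposite directions. CDH2 had a UMI in 55.0% of gated and 24.7% of other cells after thinning, and CDH1, the epithelial cadherin, in 21.9% and 31.2%, with CDH1 at 23.9 against 37.3 CPM. Of 24 matrix and epithelial-mesenchymal genes 10 were measured, HAS2, CDH2, SNAI1 and COL6A1 being higher and CDH1 lower. Among 23 migration and guidance genes 6 were measured. FZD7, ROR2 and FLRT3 were higher, and APELA, FGFR1 and CXCL12 were lower. FLRT3, a membrane protein of the anterior streak, had 25.02 against 0.728 CPM, and the Wnt5a receptor ROR2 26.6 against 4.65 CPM.

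Many other programmes stayed within 1.5-fold. None of 17 measured S phase genes, 14 of glycolysis and hypoxia, 13 of cholesterol synthesis, 8 p53 targets, 8 stress genes and 20 ribosomal protein genes passed 1.5-fold in either direction. Of 20 measured genes of G2 and mitosis, the kinesin CENPE alone passed, at 60.3 against 37.0 CPM. Markers of trophoblast and of blood were near 0, and fibroblast and neural lists were not. The 15 trophoblast and amnion genes summed to 7.78 CPM in gated and 5.24 CPM in other cells, with 5 at 0 in gated cells. The 14 blood and endothelium genes summed to 3.47 and 3.33 CPM, with 8 at 0 in gated cells, CDH5 and TAL1 among them. The 12 feeder fibroblast genes summed to 103 and 95.5 CPM, with DCN and LUM at 0 in both sets. In that last list COL1A2 was called higher, at 22.5 against 14.2 CPM.

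The 19 neural and ectoderm genes summed to 101 CPM in gated and 62.8 CPM in other cells. Of these OTX2, a gene shared with anterior endoderm, was called, PAX6 and SOX1 had 0 UMIs in gated cells, and none of the 12 HOX and CDX genes reached 20 CPM.

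Levels varied with the number of gate genes, inside the gate as well as across its edge. At 2 gate genes, just outside, CER1 stood at 94.7 CPM, and at 3, just inside, at 250 CPM. It was 27.8 CPM in cells with none, 44.5 CPM with 1, 545 CPM with 4, 1157 CPM with 5 and 1530 CPM with all 6. HAS2 went from 39.3 CPM at 3 genes to 87.7, 180 and 284 CPM at 4, 5 and 6. MSX1 was at 3.61 and 4.50 CPM at 3 and 4 genes and at 27.3 and 49.3 CPM at 5 and 6. Cells with 5 or 6 gate genes therefore held most of the MSX1 UMIs of the gated set.

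Streak genes differed in how they followed the count of gate genes. MIXL1 was at 323, 415, 546 and 667 CPM and EOMES at 136, 193, 247 and 258 CPM from 3 to 6 genes. TBXT was at 79.0, 74.2, 78.4 and 89.0 CPM from 3 to 6 genes. FGF4 was highest at 3 genes, at 38.8 CPM, and stood at 27.0, 17.5 and 10.9 CPM at 4, 5 and 6. FOXA2 was at 16.7, 20.2, 8.52 and 6.22 CPM, from only 37, 27, 19 and 16 UMIs. SOX2 was lower already at 2 genes, at 36.9 CPM against 56.3 CPM at none, and reached 10.1 CPM at 6. POU5F1 went from 1030 CPM at none to 678 CPM at 6. Median depth did not follow this order, at 28256, 25484, 24451 and 26162 UMIs from 3 to 6 genes.

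**Figure D3:**
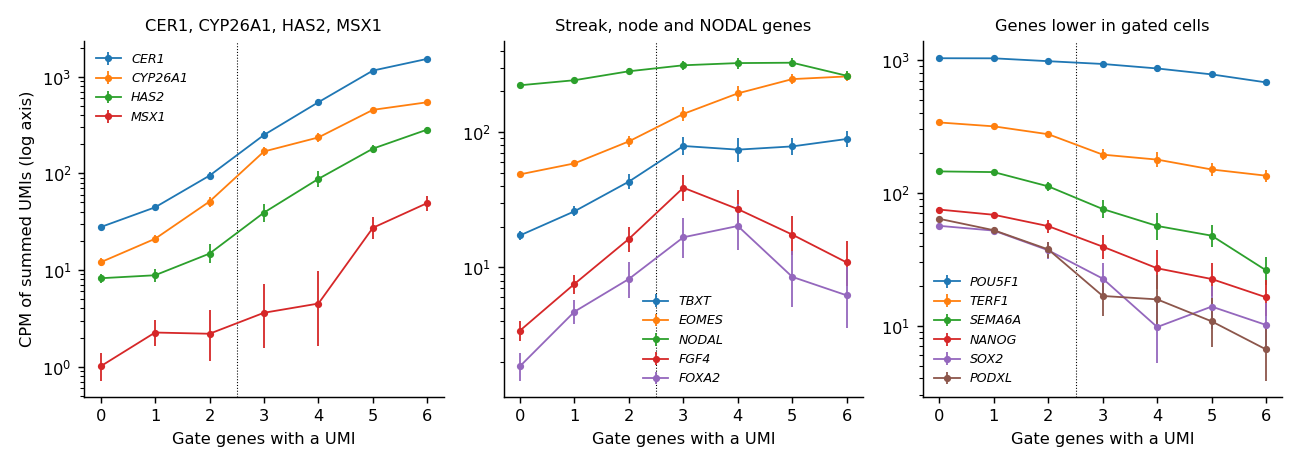
Level of 15 genes in CPM (y axis, log scale) by the number of gate genes with a UMI (x axis) in 2693 cells of the 36 h library, with 95% counting intervals; the dotted line is the edge of the gate. CER1 goes from 27.8 to 1530 CPM and PODXL from 63.6 to 6.60 CPM, while FGF4 and FOXA2 are highest at 3 and 4 gate genes.

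Clusters made without the 6 gate genes placed most gated cells together. Of 8 clusters 1 held 235 of the 302 gated cells (77.8%), and 82.2% of its 286 cells were gated (77.2% to 86.4%). GATA6-AS1 and LHX1-DT, named for gate genes, were not left out and were among the genes leading that cluster. In the other 7 clusters the gated share lay between 0% and 6.25%. The 67 gated cells outside that cluster were spread over clusters led by mitotic, histone and other genes. The 51 cells of the cluster that were not gated held 0, 1 or 2 gate genes in 7, 19 and 25 cells.

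The genes of the gated cells at 36 h were then read in the 72 h libraries, which the gate did not use. These are 1 library each, so values are given without a test. Of the 121 higher genes 111 reached 20 CPM at 72 h, 64 of them (57.7%) at least 1.5-fold higher in the endoderm library and 23 (20.7%) in the mesoderm library. Of all 3993 genes of at least 20 CPM in 36 h cells that were measured at 72 h, 10.2% were higher in endoderm and 23.7% in mesoderm. Of the 103 lower genes 71 were measured, 11 higher in endoderm and 32 in mesoderm.

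CER1 had 2969 CPM in the 72 h endoderm and 0.166 CPM in the mesoderm library, CYP26A1 862 and 0.416 CPM, and OTX2 330 and 0.832 CPM. GSC had 98.1 and 0.333 CPM and EOMES 295 and 6.33 CPM. The order was the opposite for TBXT, at 3.35 and 329 CPM, for MSX1 at 2.03 and 198 CPM, for MESP1 at 0.567 and 28.8 CPM and for NKD1 at 4.58 and 135 CPM. Gated cells thus held some genes of each later library. Among the genes higher in gated cells the share higher in mesoderm, 20.7%, was near the 23.7% of all genes. The share higher in endoderm was 57.7%, against 10.2% of all genes. LEFTY1, lower in gated cells, stood at 910 CPM in 72 h endoderm. After thinning, 83.3% of 1613 endoderm cells and 65.2% of 1031 mesoderm cells at 72 h had at least 3 gate genes, so most cells of both libraries passed the gate.

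The same genes were also read in bulk RNA at 24 h, where Activin A with CHIR was compared with CHIR alone, 2 unsorted libraries each. Gated and other cells both had Activin A, so this contrast is a different one and does not measure their difference again. Expected counts were tested with edgeR's quasi-likelihood test in 1 fit over the 24 h libraries, with p-values adjusted by Benjamini and Hochberg over 15586 genes and called under 0.05. Of these 193 rose with Activin A (1.24%) and 252 fell (1.62%). Of the 4214 tested genes of at least 20 CPM in 36 h cells, 90 rose (2.14%) and 80 fell (1.9%). The fit also held the 24 h libraries of BRD with CHIR, JNJ with CHIR and BRD alone. The spread within those groups thus enters the p-values as well. Nothing says whether the libraries came from separate cultures, so p-values measure the spread between the libraries of the fit only. In bulk, fewer cells of a type and less RNA per cell cannot be told apart.

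Of the 121 genes higher in gated cells 111 were tested, 58 rose and 0 fell, with a median log2 change of 0.80 against 0.00 for all genes. The 3 of the 111 with a negative log2 change were not called. Of the 103 lower genes 95 were tested, 0 rose and 42 fell, with a median log2 change of -0.60. The count of all calls was 260, 217, 253 and 203 in place of 445 without Activin A replicate 1, Activin A replicate 2, CHIR replicate 1 and CHIR replicate 2. Without CHIR replicate 2, 31 of the higher genes rose, and without Activin A replicate 2, 27 of the lower genes fell. The 6 gate genes all rose in this bulk comparison, by log2 changes of 3.09 to 5.77. No difference in time or mixture of cells was accounted for: the bulk cells were taken at 24 h and the single cells at 36 h.

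**Figure D4:**
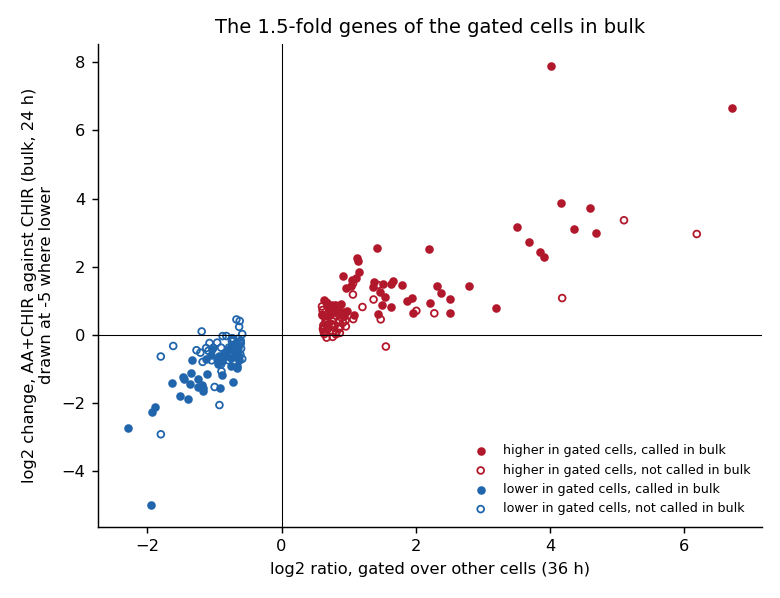
The log2 change in bulk at 24 h, Activin A with CHIR against CHIR (y axis), against the log2 ratio of gated to other cells at 36 h (x axis) for the 206 genes past 1.5-fold in cells that were tested in bulk; filled points passed a false discovery rate of 0.05, and 1 gene below the axis is drawn at its edge. All 58 filled red points lie above 0 and all 42 filled blue points below it.

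CER1 had 1151 and 1312 CPM (here scaled by TMM) in the libraries with Activin A and CHIR, and 101 and 84.1 CPM with CHIR alone. It rose by a log2 change of 3.74 ± 0.18 (SE, n = 2 and 2, edgeR adjusted p = 3.3e-09). CYP26A1 had 183 and 171 against 21.5 and 19.6 CPM (log2 change 3.11 ± 0.20, edgeR adjusted p = 9.6e-08). HAS2 had 463 and 527 against 40.9 and 26.6 CPM (log2 change 3.87 ± 0.20, edgeR adjusted p = 6.5e-09). The groups did not overlap for these genes, but the share of all genes without overlap was not counted, so this adds nothing to the test.

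MIXL1 had 1030 and 1052 against 512 and 504 CPM, and rose by a log2 change of 1.03 ± 0.10. EOMES had 634 and 689 against 319 and 309 CPM (1.07 ± 0.11), and TBXT 228 and 187 against 107 and 103 CPM (0.99 ± 0.15). The quasi-likelihood test of edgeR gave adjusted p of 9.0e-06, 1.9e-05 and 0.00082. Their log2 changes were smaller than those of CER1, CYP26A1 and HAS2, which were all above 3. Of the 15 genes with the largest ratios 12 rose, against 2.14% of the tested genes of at least 20 CPM in 36 h cells. CA2, FZD7, IER3, GADD45A and CDH2 were among the 12, and QPCT, MFAP4 and SHISAL2B did not pass the test. The call was lost for CDH2 without CHIR replicate 2 (edgeR adjusted p = 0.051). CA2 lost it without Activin A replicate 1 or CHIR replicate 2 (0.10 and 0.13), and GADD45A without any 1 of the 4 (0.064 to 0.19).

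Of the mesoderm genes of the gated cells, PDGFRA, MSX1 and MESP1 were close to 0 with CHIR alone. PDGFRA had 75.0 and 104 CPM with Activin A and CHIR, and 0 and 0.178 CPM with CHIR (edgeR adjusted p = 1.1e-05). MSX1 had 25.9 and 17.7 against 0 and 0.178 CPM (edgeR adjusted p = 0.0041). MESP1 had 14.5 and 7.70 CPM and was at 0 in both CHIR libraries (edgeR adjusted p = 0.013). TBX6 had 28.6 and 21.1 against 4.92 and 4.27 CPM (log2 change 2.43, edgeR adjusted p = 0.0047). MSX1 lost its call without Activin A replicate 1 (0.069), TBX6 without that library or CHIR replicate 2 (0.076 and 0.072), and MESP1 without any 1 of the 4 (0.064 to 0.15).

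Some genes low in gated cells, 42 of the 95 tested, fell in the same bulk comparison. PODXL had 53.05 and 45.9 CPM with Activin A and CHIR, and 320 and 346 CPM with CHIR, and fell by 2.75 ± 0.12 on the log2 scale (edgeR adjusted p = 2.7e-09). SOX2 had 6.28 and 8.81 against 29.8 and 35.3 CPM and fell by 2.11 ± 0.17 (edgeR adjusted p = 1.7e-06). SEMA6A fell by 1.81 ± 0.11 and NANOG by 1.23 ± 0.14 on that scale. POU5F1 had 739 and 740 against 925 and 876 CPM and did not pass the test (log2 change -0.28, edgeR adjusted p = 0.11). Of all tested genes of at least 20 CPM in 36 h cells, 1.9% fell. Of the 15 genes with the smallest ratios 14 were tested and 10 fell. LEFTY1 was one of them, at 6.67 and 9.12 against 29.5 and 29.4 CPM, and its call was lost without Activin A replicate 1 (edgeR adjusted p = 0.056).

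**Figure D5:**
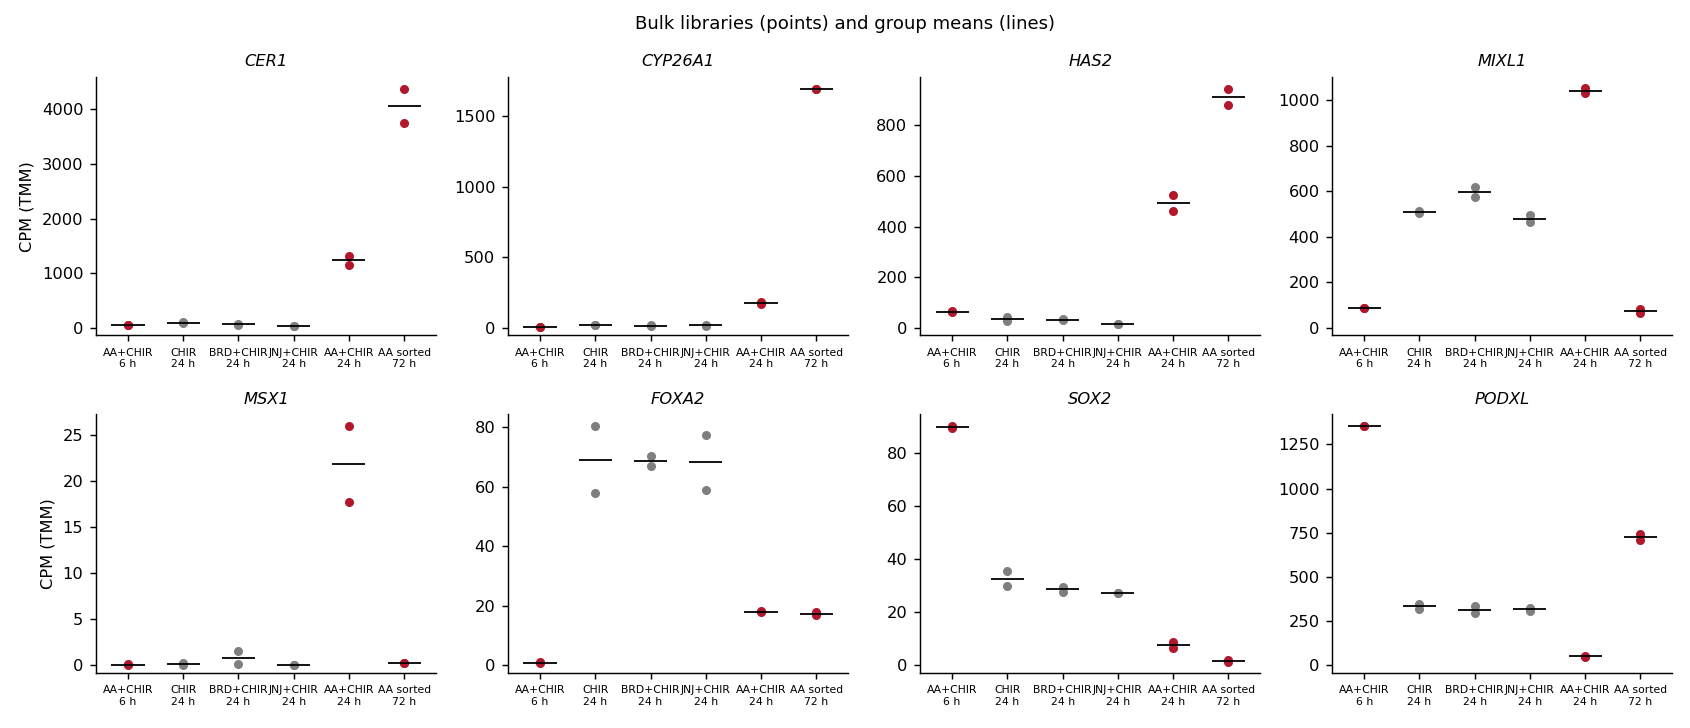
Level of 8 genes in CPM (y axis, linear, TMM scaled) in each bulk library (points) with group means (lines), for Activin A (AA) with CHIR at 6 h, CHIR, BRD with CHIR, JNJ with CHIR and AA with CHIR at 24 h, and sorted AA cells at 72 h; red marks groups with Activin A. CER1 is at 1151 and 1312 CPM with AA and CHIR at 24 h and at 101 and 84.1 CPM with CHIR alone, while FOXA2 is lower with AA and CHIR than with CHIR.

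Named genes could go different ways in cells and in bulk. FOXA2, higher in gated cells, had 18.3 and 17.7 CPM with Activin A and CHIR and 80.3 and 57.8 CPM with CHIR alone at 24 h, and fell by 1.94 ± 0.21 on the log2 scale (edgeR adjusted p = 6.8e-05). In sorted endoderm at 72 h it was at 16.7 and 17.7 CPM. The BMP target ID1, at 102 against 149 CPM in gated and other cells, had 42.6 and 61.5 against 4.73 and 19.0 CPM in bulk and rose by a log2 change of 2.13 (edgeR adjusted p = 0.0086, and 0.10 without Activin A replicate 2). GSC had 361 and 429 against 247 and 208 CPM, a log2 change of 0.80 (edgeR adjusted p = 0.0027), with the call lost without Activin A replicate 2 or CHIR replicate 2 (0.075 and 0.081). SP5 had 181 and 194 against 142 and 142 CPM and did not pass the test (edgeR adjusted p = 0.12).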

How the data were processed

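The authors deposited UMI counts per gene and barcode for 3 single-cell libraries, made with Cell Ranger 3.0.2 on GRCh38 per the file headers, and expected counts per gene for 30 bulk libraries (4.57 to 49.5 M counts). The submitters' processing notes list Salmon 1.4.0, limma 3.48.1, edgeR 3.34.0 and Seurat 4.0.2, with no role stated. A deposited matrix that aggregates these cells was not used. The 36 h library holds 83.2 M UMIs, and no unmapped column was used.

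UMIs were summed per set of cells in Python 3.11.15 with numpy 2.4.6, scipy 1.17.1 and pandas 2.3.3, and scaled to CPM. Ratio intervals are exact conditional Poisson intervals and shares have exact Clopper-Pearson intervals, at 95%; a count of 0 was read with a limit of 3 counts. PCR duplicates are removed by UMIs, and intervals cover counting error only. Clusters were made with scanpy 1.11.5 (2000 variable genes, 30 components, 15 neighbours, leidenalg 0.10.2, resolution 0.5) without the gate genes and were not named. Expected counts were rounded and tested in R 4.3.3 with edgeR 4.0.16 (TMM, filterByExpr, quasi-likelihood F-test, two-sided, 5 residual degrees of freedom); DESeq2 1.42.0 was an alternative. Standard errors come from dividing each log2 change by the square root of its F.

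Members and gene lists were chosen with earlier results of these data known. Genes were named by rule: the 15 largest and 15 smallest ratios with at least 50 CPM in the higher set, up to 4 members of each of 25 lists by ratio, and all stage genes, without clone identifiers; others were chosen after their values were seen, are fixed markers, or are the called members given beside a list's count. On simulated data, summed UMIs recovered 99.5% of 200 changed genes among 4217, and the bulk fit over 15378 genes recovered 44% of 2-fold and 81% of 4-fold changes, with 9.42% false calls. Bulk replicates with the same number in the 24 h groups compared were not treated as pairs: the deviations of replicate 1 with Activin A and CHIR and of replicate 1 with CHIR had r = 0.0056 over genes. A few genes that the rule names are not reported here.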

Additional observations from a re-analysis of the deposited data

Results flagged for a closer look

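Some barcodes left out by the depth filter had UMIs of several gate genes. Of 3551 barcodes of the 36 h library outside the filter, 57 had a UMI in at least 3 of the 6 genes, or 1.61% (exact binomial 95% interval 1.22% to 2.07%). Their median depth was 3596 UMIs, against 2397 for all barcodes outside the filter. These shallow barcodes have fewer chances to show 3 genes, and whether they are cells was not tested. No background share was measured for free RNA, so the values do not tell UMIs of these barcodes' own cells from free RNA.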

How the results depend on the processing

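With 2 gate genes in place of 3 the gate took 502 cells, with 71 genes higher and 47 lower. The counts of 121 and 103 genes became 3426 and 6409 with no filter on low counts, 49 and 41 at 50 CPM, and 58 and 37 at 2-fold. Reading the gate on thinned cells, requiring 4 genes, dropping DKK1 from the gate, other depth and MT- limits, or leaving out the deepest barcodes or, chosen after seeing the data, barcodes shared between libraries kept each count within 1.5 times, with 205 to 300 gated cells, 120 to 179 genes higher and 100 to 146 lower. No named ratio reversed, and 149 recomputed ratios moved by more than their counting interval while 679 did not. DESeq2 called 1125 genes in bulk in place of 445. Leaving out 1 bulk library gave 203 to 260 calls, with 31 to 46 of the higher genes rising and 27 to 32 of the lower genes falling; the lone library left in a group is then assumed to vary like the other groups. With a replicate block the counts were 422, 58 and 41, although replicates share only a number; ROR2 and SLC2A1 lost their calls (edgeR adjusted p = 0.057 and 0.064) and OTX2 gained one (0.024). The cause of these shifts was not tested. The limits are 1 library at 36 h, 2 per bulk group, an unstated sort gate, and a gate read from sparse counts, so a cell without 3 gate genes may still express them.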
